A study of Mus musculus with 4 samples.

Results

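Plasma carriers bind hormones and vitamins in the circulation, and a related group of plasma proteins controls proteases and complement. The genes described here encode 8 such proteins: Serpina6, Gc, Vtn, Cpn1, Cpn2, Ttr, Rbp4 and Clu. They were chosen by name from 17305 genes that the arrays' probes could be matched to, as genes of secreted plasma proteins that the pancreas also transcribes. The choice was made with their ratios between knockout (KO) and wild-type (WT) pancreas known. The members' ratios below are therefore a description, with no test.

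The samples were whole pancreas of mouse embryos of strain C57BL/6JNarl at stage E18.5 (embryonic day), from embryos lacking Cyp11a1 (KO) and from wild-type embryos (WT). Cyp11a1 encodes the mitochondrial enzyme that turns cholesterol into pregnenolone, from which all steroid hormones derive. Each of 4 two-colour Agilent arrays held 1 KO extract, labelled with a red Alexa dye, and 1 WT extract, labelled with a green one, from 20 µg of total RNA. The allele that was deleted, the number of embryos behind an extract and whether both extracts of an array were littermates are not given in the sources used here. The labels name the arrays biological replicates, so p-values measure the spread between these 4 pairs of extracts. The KO extract was red on every array, so a dye effect of a single gene cannot be told apart from genotype.

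The liver is the main source of these proteins in the adult, and they leave the cell through the secretory pathway. Corticosteroid-binding globulin (Serpina6), vitamin D binding protein (Gc), transthyretin (Ttr, which carries thyroxine) and retinol binding protein (Rbp4) hold small hydrophobic ligands in plasma and limit how much of each is free. Vitronectin (Vtn) binds integrins and components of the plasmin system, clusterin (Clu) is an extracellular chaperone that also restrains the terminal complement complex, and carboxypeptidase N, built from a catalytic subunit (Cpn1) and a regulatory subunit (Cpn2), trims basic residues from kinins and complement peptides. Glucocorticoids, which Serpina6 carries, are products of the pathway that Cyp11a1 opens.

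Promoter sequences are shown for the catalytic and the regulatory subunit of carboxypeptidase N, whose ratios differed, and for Gc and Vtn, whose ratios ran together over the arrays. Each runs 5′ to 3′ along the gene from 250 bases before to 50 bases after the start annotated by RefSeq in build GRCm38.p6. Capitals mark matches to any of 7 short motifs, searched on both strands. A motif of homeodomain factors was searched as GTTAAT. Forkhead factors such as those of the Foxa family bind sites around TGTTTAC. For the nuclear receptor encoded by Hnf4a the letters searched were CAAAG. Leucine zipper factors of the C/EBP family were represented by the palindrome TTGCGCAA. The glucocorticoid receptor was represented by the letters TGTTCT, which form one arm of its element. Other nuclear receptors, which share one arm, were represented by AGGTCA. The motif of the TATA box was searched as TATAAA. The windows were chr5:89457849-89458148 on the minus strand for Gc, chr11:78498870-78499169 on the plus strand for Vtn, chr19:43986471-43986770 on the minus strand for Cpn1 and chr16:30267483-30267782 on the minus strand for Cpn2.
Gc: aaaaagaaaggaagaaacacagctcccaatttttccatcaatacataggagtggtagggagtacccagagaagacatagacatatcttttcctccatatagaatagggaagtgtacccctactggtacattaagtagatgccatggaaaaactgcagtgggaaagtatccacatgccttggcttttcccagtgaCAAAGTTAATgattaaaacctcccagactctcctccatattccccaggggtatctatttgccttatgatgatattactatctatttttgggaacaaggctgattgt
Vtn: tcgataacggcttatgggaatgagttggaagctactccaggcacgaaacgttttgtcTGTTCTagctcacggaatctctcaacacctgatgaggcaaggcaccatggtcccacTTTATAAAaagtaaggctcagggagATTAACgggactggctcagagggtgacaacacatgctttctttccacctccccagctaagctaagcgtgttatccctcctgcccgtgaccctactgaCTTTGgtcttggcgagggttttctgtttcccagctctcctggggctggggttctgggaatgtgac
Cpn1: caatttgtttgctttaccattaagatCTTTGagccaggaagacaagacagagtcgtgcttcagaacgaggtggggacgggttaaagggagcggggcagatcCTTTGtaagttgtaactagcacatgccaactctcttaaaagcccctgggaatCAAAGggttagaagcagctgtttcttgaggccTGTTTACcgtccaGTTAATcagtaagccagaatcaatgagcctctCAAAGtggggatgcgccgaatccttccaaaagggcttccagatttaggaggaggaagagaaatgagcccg
Cpn2: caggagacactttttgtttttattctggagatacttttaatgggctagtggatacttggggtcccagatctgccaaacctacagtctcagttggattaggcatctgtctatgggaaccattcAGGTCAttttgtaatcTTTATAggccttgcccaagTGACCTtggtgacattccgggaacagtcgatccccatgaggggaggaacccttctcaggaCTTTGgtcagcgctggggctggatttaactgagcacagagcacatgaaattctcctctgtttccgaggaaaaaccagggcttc

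GTTAAT stood in the windows of Gc, Vtn and Cpn1, and 7.10% of 32851 promoters of 300 bases held it. In Gc and in Cpn1 it lay on the strand of the gene at -52 to -47 relative to the start, and in Vtn on the opposite strand at -112 to -107. The window of Cpn2 held no GTTAAT, and neither did either of the 2 annotated starts of Rbp4. The promoters of Serpina6, Ttr and Clu were not examined, so no relation between the motif and the ratios can be read from these genes. In Gc the last base of a CAAAG is the first base of the GTTAAT. Cpn1 had 4 matches to CAAAG, a motif that 53.9% of promoters held. It also had the forkhead motif at -65 to -59, which 3.65% of promoters held. Vtn had the motif of the glucocorticoid receptor at -193 to -188, which 19.0% of promoters held. It also had TATA box motifs on both strands that overlap, and 13.6% of promoters held that motif. Cpn2 had AGGTCA on both strands, at -128 to -123 and at -93 to -88, and 16.3% of promoters held it. No window shown held the C/EBP palindrome, which 0.183% of promoters held. A match describes letters only, and no factor's binding was measured.

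Of the 17305 genes, 15524 were bright enough to be tested, and 2260 of them (14.6%) passed the threshold of the fit across all genes, a limma adjusted p under 0.05. By direction, 1467 genes (9.45%) were higher and 793 (5.11%) lower in KO pancreas. Before normalisation the median of an array's spots was 304 to 467 in the KO channel and 163 to 224 in the WT channel. The targeted gene itself gave log2 ratios of -0.19, -0.40, 0.013 and -0.072 on arrays 1 to 4 for its brighter Cyp11a1 probe (mean -0.16 ± 0.070, SE, limma adjusted p = 0.164). Its other probe was well above background on 0 arrays in KO and on 1 in WT, and where the probes lie relative to the deletion is not given, so neither checks the labels.

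Of the 8 carrier protein genes, 4 were higher in KO pancreas by 1.88-fold to 2.92-fold, Clu was higher by 1.23-fold, and Rbp4, Ttr and Cpn2 lay within 1.18-fold of WT. Each gene had 1 probe, and none was dim in either channel on any array. The counts that the choice of genes fixes were 5 of 8 past the threshold, all higher in KO, against 9.45% of all genes, and 5 of 8 above 0 on every array, against 24.1%. Under other settings 3 to 8 of the 8 were past it, with 4 under both settings that use the processed signals of Feature Extraction, 4 with eBayes trend and robust, 4 without replicates 2, 3 or 4, 3 with single channels and 8 with median centring. Of the 15524 genes tested, 11922 passed with median centring, 107 with single channels and 2502 with eBayes trend and robust. With the processed signals 1764 passed after loess and 1849 in the log ratio column. Without replicates 2, 3 and 4 the counts were 1634, 967 and 1055. The median log2 ratio over the 8 genes was 0.61, against 0.013 over all genes tested. In whole pancreas, a change in the number of cells of a type and a change in RNA per cell cannot be told apart.

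**Figure D1:**
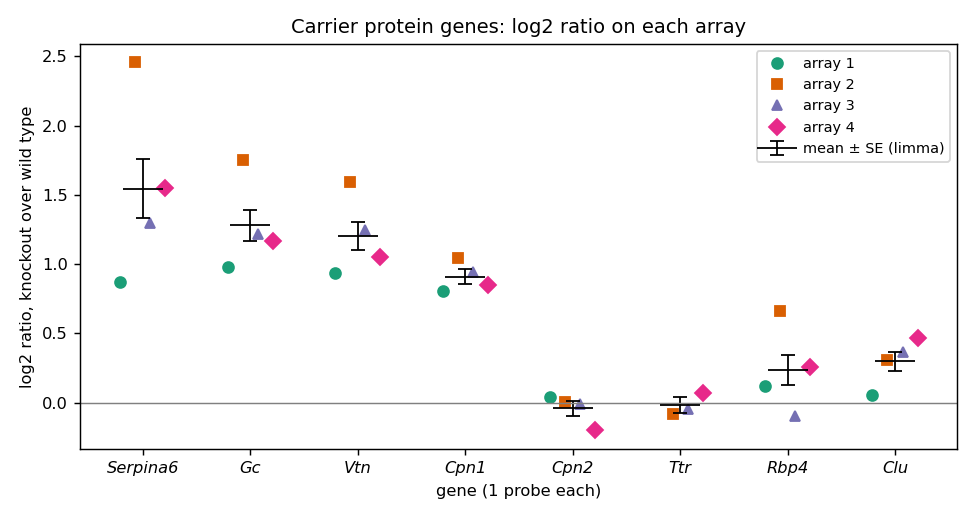
Log2 ratio of knockout over wild type (vertical axis) for each of the 8 carrier protein genes (horizontal axis), with 1 symbol per array and a bar for the mean ± SE of the limma fit. Serpina6, Gc, Vtn and Cpn1 lie above 0.80 on every array, and Cpn2, Ttr and Rbp4 have values on both sides of 0.

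Serpina6, the serpin that carries corticosteroids, is encoded on chromosome 12 and was measured by probe A_51_P133562. Its normalised signals were 2855, 2623, 4455 and 1867 in the KO extracts of arrays 1 to 4, against 1561, 478, 1810 and 638 in the WT extracts. The lowest KO signal was above the highest WT signal, by a small margin. The log2 ratios of KO over WT were 0.87, 2.46, 1.30 and 1.55, with a mean of 1.54 ± 0.67 (SD, n = 4) and an SE of 0.21 in the fit. Arrays 1 and 2 thus gave 1.83-fold and 5.49-fold. This was the widest range of the 8 genes, and the mean of 2.92-fold ranked first among the 15524 genes.

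For Serpina6 the WT extracts differed more among themselves than the KO extracts did, whereas the KO spread was the wider one for Vtn, Cpn1, Cpn2 and Clu. The highest WT signal of Serpina6 was 3.79 times the lowest, and 0.643% of 14923 genes with values on all arrays had a WT spread at least as wide. Its KO signals spanned 2.39-fold, and 1.93% of genes were at least as wide there. The median gene spanned 1.23-fold in either group. The WT extracts of arrays 1 and 3 gave the high Serpina6 signals, and they also gave the higher WT signals of Gc, Vtn, Cpn1 and Rbp4.

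The same WT extracts, of arrays 1 and 3, differed from the others in sex-linked RNA. Xist, the RNA that silences an X chromosome in female cells, had signals of 80.1, 74.1, 61.0 and 1885 in the KO extracts, against 1202, 90.0, 1135 and 171 in the WT extracts. Uty, a gene of the Y chromosome, had signals of 446, 363, 485 and 93.6 in the KO extracts, against 102, 344, 98.8 and 291 in the WT extracts. Xist was thus high in the KO extract of array 4 and in the WT extracts of arrays 1 and 3. The KO extract of array 4 had the lowest KO signal of Serpina6, Gc, Vtn, Cpn1, Cpn2, Ttr and Rbp4, whereas the WT extracts with high Xist had the high Serpina6 signals. The WT extract of array 4, with Xist at 171, also had the lowest WT signal of Cpn1, Ttr, Rbp4 and Clu. The codes of the WT extracts of arrays 1 and 3 share their first letters, BF, with the KO extract of array 3, and what the letters stand for is not given. Within an array, Xist was thus lower in KO on arrays 1 and 3, higher in KO on array 4 and low in both extracts on array 2. The part of embryo sex or of a shared origin in the spread of Serpina6, or in the ratios of any gene, was not tested.

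Gc, the vitamin D binding protein, lies on chromosome 5 and was measured by probe A_51_P349961. Its normalised signals were 4859, 5229, 6176 and 4201 in the KO extracts, against 2469, 1549, 2649 and 1866 in the WT extracts. All KO signals stood well above all WT signals. On arrays 1 to 4 the log2 ratios were 0.98, 1.75, 1.22 and 1.17, with a mean of 1.28 ± 0.33 (SD, n = 4), an SE of 0.11 and rank 3 among all genes. This is 2.43-fold higher in KO, and array 2 was again the highest and array 1 the lowest. The WT signals spanned 1.71-fold, a spread that 6.47% of genes reached.

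Vtn, the adhesion protein vitronectin, lies on chromosome 11 and was measured by probe A_51_P109840. Its normalised signals were 7721, 9225, 8989 and 6546 in the KO extracts, against 4037, 3062, 3797 and 3165 in the WT extracts. Here too the groups did not overlap. The log2 ratios were 0.94, 1.59, 1.24 and 1.05, with a mean of 1.20 ± 0.29 (SD, n = 4), an SE of 0.099 and rank 4. The WT extracts agreed more closely than for Serpina6, within 1.32-fold, and the mean was 2.30-fold higher in KO.

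Cpn1, the catalytic subunit of carboxypeptidase N, lies on chromosome 19 and was measured by probe A_52_P308669. Its normalised signals were 3002, 3244, 3119 and 2295 in the KO extracts, against 1721, 1573, 1619 and 1274 in the WT extracts. Arrays 1 to 4 gave log2 ratios of 0.80, 1.04, 0.95 and 0.85, with a mean of 0.91 ± 0.11 (SD, n = 4), an SE of 0.054 and rank 13. Cpn1 had the smallest spread of the 4 genes that were high in KO, and its mean was 1.88-fold. KO and WT signals did not overlap for Serpina6, Gc, Vtn and Cpn1, and 6.23% of all genes with values on all arrays had every KO signal above every WT signal.

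Cpn2, the regulatory subunit that keeps the catalytic subunit stable in plasma, lies on chromosome 16 and was measured by probe A_51_P170562. Its normalised signals were 667, 562, 549 and 501 in the KO extracts, against 648, 561, 552 and 575 in the WT extracts. The groups overlapped. The log2 ratios were 0.042, 0.0028, -0.0067 and -0.20, with a mean of -0.040 ± 0.11 (SD, n = 4). On each array the ratio of Cpn1 was above that of Cpn2.

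**Figure D2:**
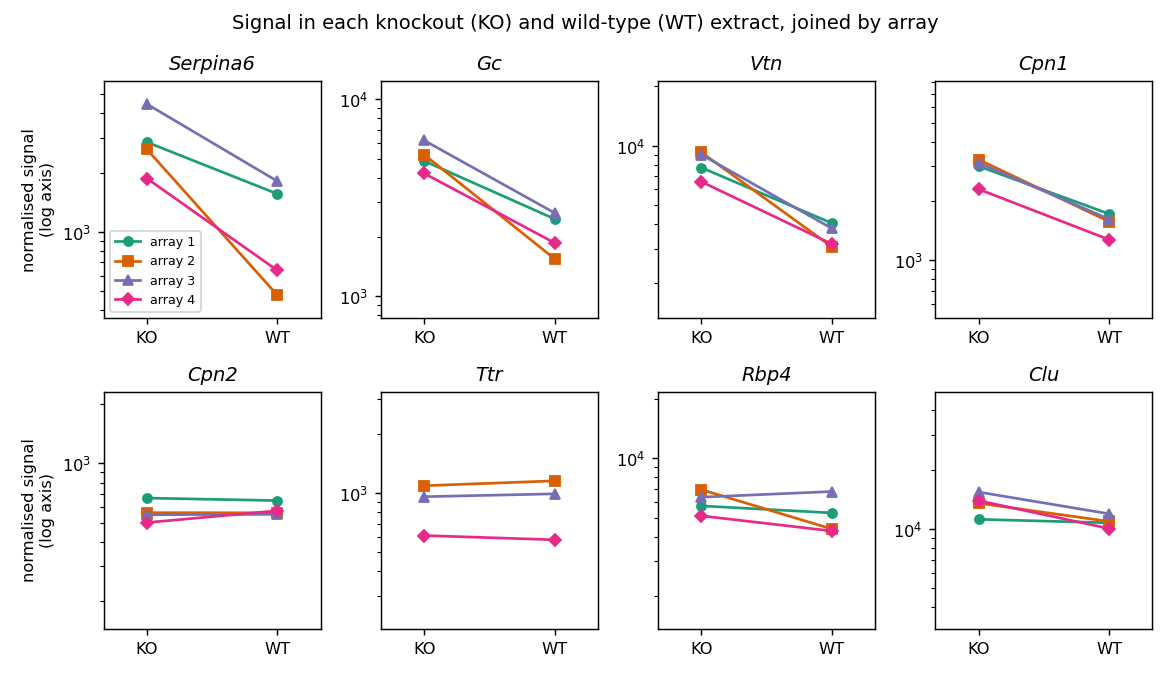
Normalised signal (vertical log axis, linear intensity after loess and scaling of the channels) in the KO extracts (left) and the WT extracts (right) for each of the 8 genes, with a line joining both extracts of an array. Every line falls towards WT for Serpina6, Gc, Vtn and Cpn1, and the WT points of Serpina6 spread 3.79-fold.

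Ttr and Rbp4, which travel in plasma as one complex, had mean ratios closer to 0 than the first 4 genes. Ttr, the carrier of thyroxine on chromosome 18, had signals of 1089, 958 and 608 in the KO extracts of arrays 2 to 4, against 1153, 990 and 579 in the WT extracts. Its spot on array 1 was marked as non-uniform and was dropped, so its fit rests on 3 arrays. The log2 ratios were -0.082, -0.048 and 0.072, with a mean of -0.019 ± 0.081 (SD, n = 3). Its signal varied more between arrays than between the extracts of an array, and array 4 was low in both.

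Rbp4, the carrier of retinol, also on chromosome 19, had signals of 5736, 6935, 6352 and 5105 in the KO extracts, against 5285, 4379, 6784 and 4277 in the WT extracts. Its log2 ratios were 0.12, 0.66, -0.095 and 0.26, with a mean of 0.24 ± 0.32 (SD, n = 4). The groups overlapped, and array 2 was the highest as for Serpina6, Gc, Vtn and Cpn1. Without replicate 2 the mean fell to 0.093.

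Clu, the chaperone clusterin on chromosome 14, had signals of 11195, 13518, 15394.5 and 13926 in the KO extracts, against 10754, 10924, 11946 and 10053 in the WT extracts. The KO extract of array 1 lay within the WT range and the other KO extracts lay above it. The log2 ratios were 0.058, 0.31, 0.37 and 0.47, with a mean of 0.30 ± 0.18 (SD, n = 4) and an SE of 0.069. Unlike the other high genes, Clu was highest on array 4.

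In the order of mean log2 ratios the genes stood as Serpina6, Gc, Vtn, Cpn1, Clu, Rbp4, Ttr and Cpn2. The neighbours Cpn1 and Clu were 0.61 apart, with an SD of 0.17 between the arrays' differences, and their ranges did not overlap. Vtn was above Cpn1 on 4 of 4 arrays by a mean of 0.29 (SD 0.18), although their ranges overlapped. Serpina6 was above Gc by 0.26 (SD 0.35) and Gc above Vtn by 0.076 (SD 0.083), each on 3 of 4 arrays, so the means of neighbours among the first 3 did not differ beyond their spread. The differences from Clu to Rbp4 (0.065, SD 0.35), from Rbp4 to Ttr (0.25, SD 0.41) and from Ttr to Cpn2 (0.021, SD 0.19) were also within their spread. Array 2 gave the highest ratio for 5 of the 8 genes and array 1 the lowest for 5.

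Centring each array on its median in place of loess moved the median of all genes from 0.013 to 0.26. Relative to that shift, Serpina6 stood at 1.68, Gc at 1.47, Vtn at 1.42, Cpn1 at 1.07, Clu at 0.56, Rbp4 at 0.46, Ttr at 0.047 and Cpn2 at -0.041. The order of the 8 genes was the same. That shift enters every value given below with median centring, for genes and for lists, but the change from loess differed between genes. The acinar marker Spink1 went from 1.04 to 1.65, and the serpin Serpina7 from 0.015 to -0.57. Values given relative to all genes remove the shift of the median only. With median centring 9471 of the 15524 genes tested were called higher in KO and 2451 lower. Each list count given below for that setting is to be read beside those counts.

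The genes with the most similar ratios over the 4 arrays, by Euclidean distance of the log2 ratios, included members of the set itself. Gc and Vtn were each other's nearest gene of all tested, at a distance of 0.21. The next nearest to Gc were Mt2 (0.37), a metallothionein, and Rplp1 (0.53), a ribosomal stalk protein. The next nearest to Vtn were Spink1 (0.38), the trypsin inhibitor of acinar cells, and Mt2 (0.44). Nearest to Serpina6 were Mt2 (0.79), Gc (0.81) and Vtn (1.00). A distance mostly finds genes of similar mean ratio, and no p is attached to it.

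Hepatocyte markers were measured beside the carriers, since hepatocytes make the same proteins. Of 30 listed markers, 29 were on the arrays and 25 were tested, of which 2 rose in KO (Ambp and Itih2), 1 fell (Hp) and 22 did not pass, with a median log2 ratio of 0.022. With median centring 14 were called higher and 2 lower. Itih2 lost its call without replicates 1, 2 or 4 (limma adjusted p = 0.14, 0.13 and 0.056). The summed signals of the tested markers were 67826 to 82529 in the KO extracts and 50680 to 80636 in the WT extracts. Both low ends were on array 1, where the spot of Apob was left out. The sums of array 1 therefore do not compare with those of the other arrays. Apoc3 and Cyp2e1 were well above background on 0 arrays in either group. Alb, the gene of albumin, had signals of 5764, 1726, 149 and 604 in the KO extracts, against 330, 266, 1714 and 222 in the WT extracts. Its log2 ratios were 4.13, 2.70, -3.52 and 1.44, and those of Ahsg, which encodes fetuin A, were 4.09, 2.69, -2.93 and 1.44. Both were thus low in KO on array 3 and high on the others.

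On array 3, where 5 hepatocyte markers were below -1 and 0 were above 1, Serpina6, Gc, Vtn and Cpn1 gave 1.30, 1.22, 1.24 and 0.95, and Clu gave 0.37, while Cpn2, Ttr and Rbp4 gave -0.0067, -0.048 and -0.095. On array 1, where 7 hepatocyte markers were above 1, Serpina6, Gc, Vtn and Cpn1 gave 0.87, 0.98, 0.94 and 0.80, their lowest ratios. The part of hepatocyte RNA in the carriers' ratios was not tested. Kng1, which encodes the kininogen that yields bradykinin, a substrate of carboxypeptidase N, gave 1.48, 1.24, -0.61 and 0.49 and followed the signs of albumin.

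**Figure D3:**
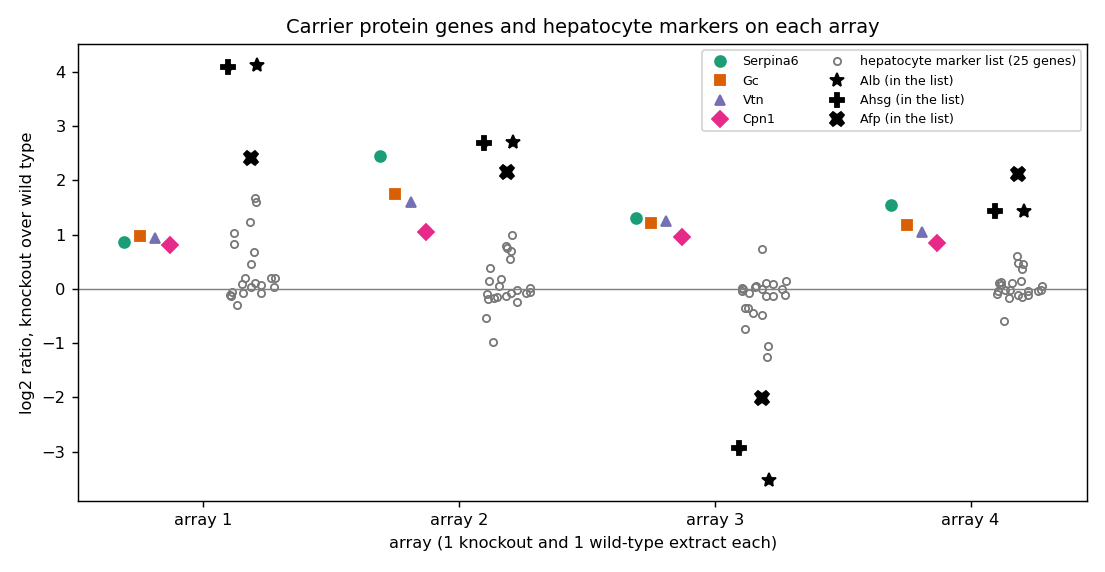
Log2 ratio of knockout over wild type (vertical axis) on each array (horizontal axis). Serpina6, Gc, Vtn and Cpn1 are filled symbols, left of each array. The 25 hepatocyte markers are open grey circles, right of each array, with Alb, Ahsg and Afp in black. On array 3 albumin lies at -3.52 while the 4 carrier genes lie between 0.95 and 1.30.

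Some acinar markers were also higher in KO. Of 18 acinar markers, 7 rose and 1 fell, beside 9.45% of all genes higher and 5.11% lower, with a median log2 ratio of 0.17. With median centring 16 were called higher and 0 lower, and the list median lay 0.57 above that of all genes, against 0.15 above it with loess. Among them were Spink1 (1.04 ± 0.076, SE, limma adjusted p = 0.0016) and the lipase relative Pnliprp1 (0.92 ± 0.096, adjusted p = 0.0023). The summed acinar signal in KO was 1.07, 1.40, 1.41 and 1.53 times that in WT on arrays 1 to 4. These were below the fold of Serpina6, Gc, Vtn and Cpn1 on each array, but the brightest genes weigh most in a sum. Spink1, the acinar marker with the highest mean, gave log2 ratios of 0.79, 1.29, 1.05 and 1.01. Those of Cpn1 were 0.80, 1.04, 0.95 and 0.85, so Spink1 was the higher on arrays 2 to 4. The part of acinar content in the carriers' ratios was not tested.

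Genes that handle or answer to the cargo of Serpina6 were counted next. Of 12 tested genes of corticosteroid handling, 1 rose and 3 fell in KO, and the median was -0.034. With median centring 5 were called higher and 2 lower, and the median was 0.056, which is -0.20 relative to all genes. The decreases were in Klf9 (-0.57 ± 0.062, SE, limma adjusted p = 0.0026), a transcription factor that glucocorticoids induce, Fkbp5 (-0.55 ± 0.064, adjusted p = 0.0031), a cochaperone of the receptor that they also induce, and Hsd11b1 (-0.34 ± 0.051, adjusted p = 0.0069), which regenerates active glucocorticoid. Fkbp4, a cochaperone that aids transport of the receptor, rose by 0.29 (adjusted p = 0.0084). The glucocorticoid receptor gene Nr3c1 gave 0.19 ± 0.058 and did not pass (adjusted p = 0.071). Its other probes gave 0.016, 0.092 and 0.093. The other probe of Klf9 gave -1.25. With median centring Klf9 gave -0.25 and kept its call, Fkbp5 gave -0.15 and lost it (adjusted p = 0.073), and Hsd11b1 turned to 0.079. Relative to all genes these were -0.50, -0.41 and -0.18. Nr3c1 gave 0.62 there and passed (adjusted p = 4.9e-05).

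Other serpins gave no common direction. Of 27 tested, 3 rose and 3 fell, with a median of 0.015, and with median centring 13 were called higher and 8 lower. Serpini2, a serpin known from the pancreas, rose by 0.66 ± 0.11 (SE, limma adjusted p = 0.011) and Serpinb1a, an inhibitor of neutrophil proteases, by 0.53 ± 0.054 (adjusted p = 0.0022). Serpina10, the inhibitor of factor Xa that lies beside Serpina6, rose by 0.30 ± 0.057 (adjusted p = 0.015), but not without replicate 1 or replicate 3 (adjusted p = 0.058 and 0.059). Serpinb8 (-0.68, limma adjusted p = 0.021), Serpinf1 (-0.48, adjusted p = 0.020) and Serpina9 (-0.27, adjusted p = 0.040) fell. Serpinb8 lost its call without replicates 1, 3 or 4 (adjusted p = 0.084, 0.064 and 0.058), Serpinf1 without replicates 1 or 4 (adjusted p = 0.063 and 0.066) and Serpina9 without replicates 1, 2 or 4 (adjusted p = 0.060, 0.12 and 0.16). Serpinf1 gave 0.086 and 0.094 with the processed signals of Feature Extraction, and with median centring it gave -0.15 and lost its call (adjusted p = 0.18) while Serpina9 turned to 0.16. Serpina7, which carries thyroxine, gave 0.015 and did not pass (adjusted p = 0.86), but gave -0.57 and passed with median centring (adjusted p = 1.2e-04). Its probe was well above background on 3 arrays in KO and on 1 in WT.

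The genes beside the carriers on their chromosomes mostly did not move with them. The tested neighbours of Serpina6 were Ppp4r4, which fell by 0.29 (limma adjusted p = 0.012), Serpina10, Serpina1f (0.041, not past the threshold) and Serpina1d (0.41 ± 0.21, not past the threshold, adjusted p = 0.22). Serpina1d has near-identical copies, and its probe may read several of them. None of the 4 neighbours of Gc (Dck, Slc4a4, Npffr2 and Adamts3) and none of the 4 of Vtn (Foxn1, Slc46a1, Sebox and Tmem199) passed. With median centring, where 11922 of the 15524 genes passed, Dck (0.25), Npffr2 (0.41), Adamts3 (0.16), Sebox (0.60) and Tmem199 (-0.22) did. So did Serpina1f (-0.49) and Serpina1d (0.72) beside Serpina6, while Slc4a4, Foxn1 and Slc46a1 did not. Beside Cpn1, Dnmbp rose by 0.24 (adjusted p = 0.014), Erlin1 fell by 0.25 (adjusted p = 0.028), and Cutc and Cyp2c23 did not pass. Dnmbp lost its call without replicates 3 or 4 (adjusted p = 0.050 and 0.066), and Erlin1 without any of the 4 (adjusted p = 0.053 to 0.087), turning to 0.18 with median centring.

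Around Gc, 0 of 11 genes of vitamin D handling and response passed in either direction, with a median of -0.039, and with median centring 4 were called higher and 2 lower. The vitamin D receptor Vdr gave -0.039 ± 0.050 (SE) and the uptake receptor Lrp2 gave -0.10 ± 0.044, and Cubn, the other uptake receptor, was on no array above background. Gc belongs to the albumin family, and of its 3 relatives Afm, which encodes afamin, rose by 0.46 ± 0.065 (limma adjusted p = 0.0055). Alb (mean 1.19 ± 1.04) and Afp (1.16 ± 0.67), the fetal albumin relative, did not pass, and both were below 0 on array 3 and above 0 on the other arrays.

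Among 21 tested vitronectin receptors and genes of pericellular plasmin control, 0 rose and 4 fell, with a median of -0.067. Itgav, the alpha chain of the vitronectin receptor, fell by 0.39 ± 0.051 (SE, limma adjusted p = 0.0045) and its partner Itgb1 by 0.23 ± 0.046 (adjusted p = 0.020). Thbs1, a matrix protein that integrins also bind, fell by 0.38 ± 0.067 (adjusted p = 0.012), and Itga2b, the integrin chain of platelets, by 0.19 (adjusted p = 0.030). Itga2b passed in no fit that left out 1 replicate (adjusted p = 0.071 to 0.090), and Itgb1 only in the fit without replicate 2 (adjusted p = 0.074, 0.083 and 0.052 without replicates 1, 3 and 4). The beta chains Itgb3 (-0.018) and Itgb5 (0.14) and the urokinase receptor Plaur (-0.16) did not pass. With median centring 14 of the 21 were called higher and 0 lower, Itgav gave -0.054 and lost its call (adjusted p = 0.38), Itgb1 turned to 0.21, Thbs1 to 0.0074 and Itga2b to 0.35, and the list median lay 0.047 below that of all genes.

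Relatives, substrates and receptors of carboxypeptidase N gave 0 of 18 higher and 2 lower, with a median of -0.066. With median centring 10 were called higher and 3 lower, and the median was 0.21, which is -0.046 relative to all genes. Ace, the angiotensin-converting enzyme that also degrades bradykinin, fell by 0.29 ± 0.043 (SE, limma adjusted p = 0.0066), and Cpxm2, a relative thought to lack catalytic activity, by 0.25 ± 0.049 (adjusted p = 0.017). Their other probes gave 0.019 and 0.013, Cpxm2 did not pass without replicate 3 or replicate 4 (adjusted p = 0.070 and 0.054), and with median centring Ace turned to 0.18 and Cpxm2 to 0.037. Cpm, the membrane-bound carboxypeptidase of the same specificity, gave -0.19, the kinin receptor Bdkrb1 gave -0.17 (n = 3) and the anaphylatoxin receptor C5ar1 gave -0.093, and none passed.

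Of 12 tested genes of thyroid hormone handling, 2 rose and 0 fell, with a median of 0.015, and with median centring 7 were called higher and 3 lower. Thra, a thyroid hormone receptor, rose by 0.28 ± 0.048 (SE, limma adjusted p = 0.011), and Crym, a cytosolic binder of the hormone, by 0.28 ± 0.069 (adjusted p = 0.038). Of the fits that left out 1 replicate, Crym passed only without replicate 4 (adjusted p = 0.12, 0.067 and 0.12 without replicates 1, 2 and 3), and it turned to -0.0075 with median centring. Of 23 genes of retinol handling, 1 rose and 1 fell, with a median of -0.018, and with median centring 9 were called higher and 6 lower. Aldh1a1, which makes retinoic acid, rose by 0.50 ± 0.051 (adjusted p = 0.0022), and the retinoic acid receptor Rarg fell by 0.31 ± 0.059 (adjusted p = 0.016), while its other probe gave 0.068. Without replicate 1 Rarg did not pass (adjusted p = 0.054), and median centring turned it to 0.13. The Rbp4 receptor Stra6 (0.10) did not pass.

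Around Clu, 18 genes of terminal complement and its regulators gave 1 higher and 1 lower, with a median of -0.016, and with median centring 7 higher and 5 lower. Cfi, the protease that inactivates complement fragments, rose by 0.56 ± 0.079 (SE, limma adjusted p = 0.0057), and C1s1, a protease of the first component, fell by 0.51 ± 0.053 (adjusted p = 0.0022), with -0.15 on its other probe. With median centring C1s1 gave -0.00029 and lost its call (adjusted p = 0.996). Of 12 clusterin receptors and extracellular chaperones, 0 rose and 3 fell, with a median of -0.049, and with median centring 5 were called higher and 4 lower. Among these were Vldlr (-0.56 ± 0.060, adjusted p = 0.0024), an endocytic receptor, and the haemoglobin binder Hp (-0.56 ± 0.10, adjusted p = 0.015).

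Transcription factors of hepatocytes and pancreas gave 3 higher and 1 lower of 21, with a median of 0.066, and with median centring 14 higher and 4 lower. Foxa2 (0.35 ± 0.065, SE, limma adjusted p = 0.015) and Foxa3 (0.29 ± 0.055, adjusted p = 0.015), forkhead factors of gut-derived organs, and the bile acid receptor Nr1h4 (0.32 ± 0.060, adjusted p = 0.015) rose. Cebpg, a leucine zipper factor, fell by 0.38 ± 0.050 (adjusted p = 0.0046). Hnf4a gave 0.18 ± 0.064 and Nr5a2 0.071 ± 0.069, neither past the threshold, although both passed with median centring (0.36 and 0.53). Foxa3 did not pass without replicate 4 (adjusted p = 0.054), nor Nr1h4 without replicate 1 (adjusted p = 0.059). Against the 14.6% of all genes called in either direction, the lists plotted ranged from 0 of 11 for vitamin D to 4 of 12 for corticosteroids, apart from 1 of 3 in the albumin family.

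**Figure D4:**
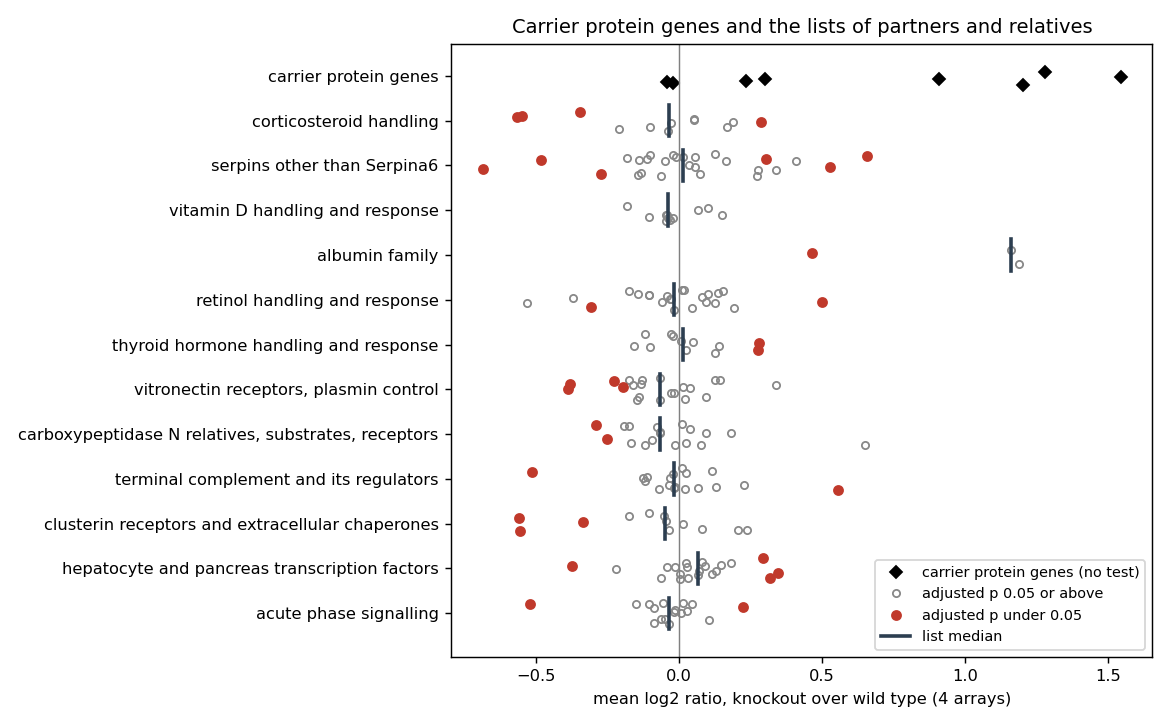
Mean log2 ratio of knockout over wild type (horizontal axis) for the 8 carrier protein genes (diamonds, top row) and the tested genes of the lists (rows), with filled red circles for an adjusted p under 0.05 and a vertical bar for each list's median. Apart from the albumin family at 1.16, the medians of the plotted lists lie close to 0, whereas 4 of the carriers lie above 0.90.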

How the data were processed

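Each of 4 arrays held a KO extract in red and a WT extract in green. The authors quantified the scans in Agilent Feature Extraction 10.5.1.1, as the submitters' processing notes state. The deposited files list, per the file headers, each spot's median signal and background as linear intensity, its processed intensity, and a log10 ratio of KO over WT. That ratio equalled the processed one within 0.001 for 90.7% of spots.

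From the deposited median intensity values, log2 ratios were computed in limma 3.58.1 under R 4.3.3, with normexp background correction (offset 50) and loess within arrays, control and non-uniform spots at weight 0. Non-uniform spots (597 to 979 per array) were left out, and no spot was saturated. Of 41174 probes, 25097 (61.0%) matched a RefSeq accession of the GRCm38.p6 gene table. Probes well above background in 1 channel on at least 3 arrays were kept, a gene being its brightest probe. This left 15524 genes, 601 with values on 3 arrays. The ratio was tested against 0 with lmFit and eBayes, two-sided, with Benjamini-Hochberg adjustment over all genes and a threshold of 0.05. The pairing of a KO with a WT extract is inside each ratio. Errors given as SE come from this fit. Signals of a channel are after loess and Aquantile scaling, and the number of arrays limits the precision. The fit was tested on simulated data.

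The 8 carrier protein genes and the 22 lists were chosen with earlier results of these data known. Named were the 8 genes, up to 3 called genes per list with the smallest p, 24 direct partners, the 2 tested neighbours on either side of Serpina6, Gc, Vtn and Cpn1, and the 3 nearest patterns. Fkbp4, Serpinb8, Serpinf1, Serpina9, Itga2b, Kng1, Ahsg, Xist and Uty were named after their values were seen. A few genes that this rule takes are not reported here. Promoters came from RefSeq (GRCm38.p6) for 5 of the 8 genes. Alternatives were other background, normalisation, filter, probe and model settings and leaving out each replicate.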

Additional observations from a re-analysis of the deposited data

Results flagged for a closer look

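Among 81 genes, those with log2 ratios on all 4 arrays were examined for 1 array far from the others. Of these, 5 such genes were found, where chance gives about 1 in 20. Afp, the fetal relative of Gc, gave -2.02 on array 3, against 2.12 to 2.40 on the other arrays. Cpxm2, a relative of carboxypeptidase N, gave -0.37 on array 3, below its other arrays. Pnliprp1, a lipase relative of acinar cells, gave 0.51 on array 1, against 1.03 to 1.09 on the others. C1qa, a complement gene of macrophages, gave 0.71 on array 3, against 0.38 to 0.42 on the others. Serpina1f, a neighbour of Serpina6, gave -0.056 on array 2, below its other arrays. None of the 8 carrier protein genes was among the 5, and Ttr and Bdkrb1, with 3 arrays each, were not examined.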

How the results depend on the processing

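Over 15 alternatives the log2 ratio ranged from 1.24 to 1.93 for Serpina6, 1.12 to 1.72 for Gc, 1.08 to 1.68 for Vtn, 0.87 to 1.32 for Cpn1, 0.24 to 0.82 for Clu, 0.093 to 0.71 for Rbp4, -0.065 to 0.30 for Ttr and -0.069 to 0.21 for Cpn2, each highest with median centring in place of loess. The median over the 8 genes, 0.61, was 1.07 with median centring, against an all-gene median of 0.26. The number of genes past the threshold, 2260, was 11922 with median centring (9471 higher, 2451 lower), 107 with single channels and no replicate block, which drops the pairing of extracts on an array, and 967 to 1634 when 1 replicate was left out. The replicate numbers name arrays, so the pairing stood in every other setting, and the cause of the larger count with centring was not tested. With the processed signals of Feature Extraction, Serpinf1 reversed to 0.086 (with loess) and 0.094 (log ratio column). With median centring these reversed: Ace 0.18, Adamts3 0.16, Bdkrb1 0.29, Chga 0.23, Chgb 0.045, Cpxm2 0.037, Crym -0.0075, Dck 0.25, Erlin1 0.18, Flt1 0.014, Hsd11b1 0.079, Itga2b 0.35, Itgb1 0.21, Npffr2 0.41, Plaur 0.18, Rarg 0.13, Serpina1f -0.49, Serpina7 -0.57, Serpina9 0.16 and Thbs1 0.0074. Of the other comparisons of a named gene with an alternative, 911 kept direction and side of the threshold, 117 lost the call, 15 gained it and 28 changed sign without being called in either setting. Of those 28, median centring gave Cpm 0.094, Cyp2c23 0.086, Itgb3 0.13, Slc4a4 -0.12 and Vdr 0.062.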

Other observations

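Genes of acute phase signalling, which drives several plasma proteins in liver, gave 1 higher and 1 lower of 17 tested, with a median log2 ratio of -0.035, and 8 higher and 8 lower with median centring. Il1r1, the interleukin-1 receptor, fell by 0.52 ± 0.093 (SE, n = 4, limma adjusted p = 0.013), but not without replicate 1 (adjusted p = 0.056). The kinase Jak1 rose by 0.22 ± 0.045 (adjusted p = 0.019), but not without replicate 3 or replicate 4 (adjusted p = 0.080 and 0.077).

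Markers of other cell types of the pancreas were also counted. Duct markers gave 0 of 8 past the threshold and mesothelial markers 0 of 6. Intestinal epithelium gave 0 of 7 and red blood cell markers 0 of 5. Of 11 islet markers 0 rose and 2 fell (Chga and Chgb), of 6 endothelial markers 0 rose and 2 fell (Tek and Flt1), of 6 macrophage markers C1qa alone rose, by 0.48 (limma adjusted p = 0.0047), and of 9 mesenchymal markers Pdgfrb alone rose, by 0.33 (adjusted p = 0.021). The summed signal of red blood cell markers in KO was 1.39, 1.35, 0.74 and 2.68 times that in WT on arrays 1 to 4. With median centring the calls were 7 higher and 0 lower for islet, 3 higher and 1 lower for endothelium, 3 higher and 1 lower for macrophages, 8 higher and 0 lower for mesenchyme, 6 higher and 0 lower for duct, 1 higher and 2 lower for mesothelium, 4 higher and 0 lower for intestinal epithelium and 5 higher and 0 lower for red blood cells. Chga, Chgb and Flt1 turned positive there. With loess, the calls of Chga, Chgb, Tek, Flt1 and Pdgfrb were each lost in some fits that left out 1 replicate. The limma adjusted p without replicates 1, 3 and 4 was 0.11, 0.12 and 0.070 for Chga and 0.11, 0.10 and 0.11 for Flt1. Without replicates 1, 2 and 3 it was 0.14, 0.094 and 0.14 for Chgb. Without replicates 3 and 4 it was 0.082 and 0.089 for Tek, and without replicates 2 and 4 it was 0.058 and 0.077 for Pdgfrb.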
